A study of Rattus norvegicus with 6 samples.

Results

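The GADD45 family, Gadd45a, Gadd45b and Gadd45g, was followed across control, curdlan and R406 plus curdlan arrays of a rat mast cell line. Its members were the probe sets annotated with exactly 1 gene symbol that is one of these 3 names. There were 3 such probe sets, 1 for each gene, among 29214 in all. Those with 1 symbol numbered 15310 and covered 14506 genes. The cells of all 6 arrays were RBL-2H3, a rat basophilic leukaemia line used as a mast cell model, and per the labels all of them stably overexpressed wild-type Dectin-1, a surface receptor for beta-glucans. The control group was left unstimulated, the curdlan group was given curdlan (an insoluble beta-glucan), and the R406 plus curdlan group received the Syk inhibitor R406 before curdlan. Each group had 2 arrays. No group received R406 without curdlan, and RBL-2H3 cells without the introduced receptor were not analysed here. The labels give no dose and no time of stimulation, and they do not state whether the stable line is 1 clone. Separate cultures behind the arrays of a group are not stated either, so the p-values cover the spread between arrays, possibly technical alone.

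GADD45 proteins are small acidic nuclear proteins with no known enzymatic activity, and they act by binding other proteins. They bind PCNA, the cell cycle inhibitor p21 and the mitotic kinase complex of Cdk1 and cyclin B1, and they activate MTK1 (the product of Map3k4), a kinase upstream of p38 and JNK. They have also been linked to excision repair and active DNA demethylation. Gadd45a is the classic DNA damage and p53 target of the family, Gadd45b was found as a myeloid differentiation gene and responds to NF-kB and TGF-beta, and Gadd45g responds to cytokines.

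The sequence before each gene's annotated start is shown because the members differed in which comparisons called them. Its part in their changes was not tested. For Gadd45a (chr4:97486800-97487049) and Gadd45g (chr17:13530352-13530601) these are the 250 bases upstream of the start, from RefSeq on GRCr8, on the minus strand and written 5′ to 3′. For Gadd45b (chr7:9430879-9430908, minus strand) a stretch of 30 bases around its E-box is shown. RefSeq's span of Gadd45b reaches 273 bases upstream of the start used here, past the whole searched window, so its matches, missing matches and distances hold for that start alone. Capitals mark matches to the octamer, the C/EBP-ATF composite, the E-box, the CCAAT box and the TATA motif.
Gadd45a: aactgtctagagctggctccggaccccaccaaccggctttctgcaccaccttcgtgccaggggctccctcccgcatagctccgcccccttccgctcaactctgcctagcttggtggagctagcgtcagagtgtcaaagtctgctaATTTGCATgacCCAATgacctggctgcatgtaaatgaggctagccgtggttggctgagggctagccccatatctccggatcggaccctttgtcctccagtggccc
Gadd45b: agccctgaccccCACGTGgggccgccggag
Gadd45g: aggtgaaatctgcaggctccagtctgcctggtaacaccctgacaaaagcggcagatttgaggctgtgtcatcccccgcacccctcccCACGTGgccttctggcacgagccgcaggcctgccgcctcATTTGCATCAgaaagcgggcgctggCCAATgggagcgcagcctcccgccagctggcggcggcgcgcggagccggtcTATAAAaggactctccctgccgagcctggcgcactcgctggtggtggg
All 3 members were matched in the RefSeq table, and 10 short motifs were searched on both strands in the same window of 33469 genes. The octamer ATTTGCAT, a binding motif of POU factors such as Oct-1, lay 105 to 98 bases before the start of Gadd45a and 124 to 117 bases before that of Gadd45g, and it had no match in the window of Gadd45b. It was found in 1.56% of all windows. The Gadd45g octamer overlapped a C/EBP-ATF composite motif (TGATGCAA, read on the other strand as TTGCATCA), which was found in 0.693% of windows. The E-box CACGTG, a motif of Myc and other basic helix-loop-helix factors, was present in the windows of Gadd45b and Gadd45g and in 5.59% of all windows. CCAAT was present upstream of all 3 members, with 2 matches for Gadd45b, and in 34% of windows. The GC box GGGCGG had 1 match for Gadd45a, 3 for Gadd45b and 0 for Gadd45g, and was present in 30.5% of windows. TATAAA was present upstream of Gadd45g and in 12.9% of windows. Letters of the AP-1 (TGANTCA), CRE (TGACGTCA), EGR (GCGTGGGCG) and FOXO (GTAAACA) motifs were not in these windows, whose shares over all genes were 6.34%, 1.59%, 0.478% and 3.21%. The motifs were chosen after these promoters were seen, so the shares over all windows do not show whether the members are enriched for a match. A match describes the letters in the window and does not show that a factor binds there.

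Values are log2 signals as the authors deposited them, and a change is a difference of group means with its standard error (SE) from a limma fit of all 6 arrays. A probe set was called where its Benjamini-Hochberg adjusted p over all 29214 probe sets was under 0.05. Array medians lay between 7.204 and 7.241, and arrays correlated at 0.9975 to 0.9981 within groups and at 0.9939 to 0.9967 between groups. Of 14 mast cell markers, 11 lay above the median signal of all probe sets, among them the IgE receptor genes Fcer1a and Ms4a2 at control means of 12.81 and 13.51. The tryptase genes Tpsb2 and Tpsab1 and the serotonin synthesis gene Tph1 lay below it, at 6.39, 6.20 and 6.41. The mean over the 14 markers was 11.61 to 11.63 in control, 11.66 in curdlan, and 11.60 to 11.61 in R406 plus curdlan arrays. Above the median signal lay 2 of 10 macrophage and neutrophil markers, 1 of 6 measured lymphocyte markers and 3 of 9 fibroblast and epithelial markers. The means of these 3 lists stayed within 6.77 to 6.83, 5.84 to 5.99 and 6.58 to 6.67 over the 6 arrays. Single markers moved within these lists. Tph1 rose by 0.72 with curdlan (limma adjusted p = 0.0295) and was lower under R406 plus curdlan than with curdlan, at -0.69 (adjusted p = 0.0123). The myeloid marker Itgam, with means of 10.44, 10.77 and 10.41 in control, curdlan and R406 plus curdlan arrays, was lower in the latter comparison at -0.36 (adjusted p = 0.0408). Their part in the changes of the GADD45 genes was not tested. Clec7a, the rat Dectin-1 gene, had means of 7.07, 7.22 and 7.12 in control, curdlan and R406 plus curdlan arrays, and Syk had means of 9.14, 9.02 and 9.09, with no call in any comparison. The Clec7a signal near the array medians does not show the overexpression, and whether its probes read the introduced receptor was not tested.

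Gadd45b (probe set 10900358) was raised by curdlan and was lower when R406 preceded curdlan. Its signals were 8.88 and 8.65 on the control arrays, 9.45 and 9.58 on the curdlan arrays, and 8.91 and 8.92 on the R406 plus curdlan arrays. Both curdlan arrays stood above the other 4, and the R406 plus curdlan arrays lay just above the higher control array. With 2 arrays each, groups often did not overlap. Between curdlan and control this held for 43.1% of probe sets. The share was 53.3% between R406 plus curdlan and curdlan, and 53.5% between R406 plus curdlan and control. With curdlan the gene rose by 0.75 ± 0.0921 (SE, n = 2 arrays per group), a 1.68-fold change with a 95% interval of 0.52 to 0.99 (limma, Benjamini-Hochberg adjusted p = 0.0374). Among probe sets with 1 symbol it ranked 71 by size of rise. The family thus had 1 of 3 members called in this comparison, against 1.59% of all probe sets called in either direction and 1.04% called higher. These shares, like those of the other comparisons below, are over probe sets of all signal levels. A fit of only probe sets above the median signal called 1572 with curdlan, more than the 465 of the main fit. The call of Gadd45b was lost without any 1 of the 6 arrays, in fits with 2 residual degrees of freedom: the change then lay between 0.64 and 0.87 and the adjusted p between 0.0821 and 0.183. A fit of only the control and curdlan arrays lost the call as well (limma adjusted p = 0.121). That fit gives the same values as leaving out either R406 plus curdlan array, so it is not a further check.

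Under R406 plus curdlan, Gadd45b fell 1.51-fold below its curdlan level, at -0.60 ± 0.0921 (95% interval -0.83 to -0.36, limma adjusted p = 0.0266). Its level then differed from the unstimulated control by 0.15 ± 0.0921, with an interval of -0.08 to 0.39 (limma adjusted p = 0.416). That difference was 0.27 without control replicate 1 and 0.04 without control replicate 2. The order of its levels was control, R406 plus curdlan and curdlan, and the first 2 did not differ beyond the test. The fall against curdlan was not called without curdlan replicate 1 (-0.66, adjusted p = 0.0886), without curdlan replicate 2 (-0.54, adjusted p = 0.111), or without R406 plus curdlan replicate 1 or 2 (adjusted p = 0.138 and 0.149).

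Gadd45a (probe set 10862867) had another pattern: its level under R406 plus curdlan was below that of unstimulated cells. Its signals were 11.53 and 11.61 on the control arrays, 11.78 and 11.80 on the curdlan arrays, and 10.54 on both R406 plus curdlan arrays. The 3 groups did not overlap, a state that with 2 arrays each was common: it held for 43.1% of probe sets between curdlan and control, 53.3% between R406 plus curdlan and curdlan, and 53.5% between R406 plus curdlan and control. Both R406 plus curdlan arrays lay far below the other 4. Against curdlan alone the gene fell by 1.25 ± 0.0487, which is 2.38-fold lower, with a 95% interval of -1.37 to -1.13 (limma adjusted p = 0.000829). It ranked 47 by size of fall among probe sets with 1 symbol. In this comparison 2 of 3 members were called, both lower, against 3.23% of all probe sets called lower and 7.25% called in either direction. The fall of Gadd45a was called without each of the 6 arrays in turn, with changes of -1.26 to -1.24 and adjusted p of 0.00703 to 0.0208. Leaving out either control array gives the same values as a fit of the 4 arrays compared, with the change unaltered. Those 2 fits are thus not separate checks.

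Against the unstimulated control, Gadd45a under R406 plus curdlan fell by 1.03 ± 0.0487, which is 2.04-fold lower (95% interval -1.15 to -0.91, limma adjusted p = 0.00483). It ranked 19 by size of fall, and it was the 1 member of 3 called in this comparison, against 2.23% of all probe sets and 0.791% called lower. Without control replicate 1 or 2 the change was -1.07 or -0.99 (adjusted p = 0.0556 and 0.0587), and without R406 plus curdlan replicate 1 or 2 it was -1.03 in both fits (adjusted p = 0.0861 and 0.091). With curdlan alone, Gadd45a was 1.17-fold above control, a change of 0.22 ± 0.0487 with an interval of 0.10 to 0.35 that did not pass over all probe sets (limma adjusted p = 0.127). That difference did pass among probe sets above the median signal (adjusted p = 0.0252) and with a variance prior that follows the signal (adjusted p = 0.0122). The order of its levels was R406 plus curdlan, control and curdlan, and the last 2 were the neighbours that the test did not separate. Both comparisons of R406 plus curdlan share its arrays, so they are not independent. From the curdlan level Gadd45a fell by 1.25, more than the difference of 0.22 between curdlan and control. The effect of R406 without curdlan was not tested.

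Gadd45g (probe set 10797527) was not called in any comparison. Its signals were 6.52 and 6.60 on the control arrays, 6.46 on both curdlan arrays, and 6.47 and 6.34 on the R406 plus curdlan arrays. All 6 values lay between 6.34 and 6.60, and between 0.64 and 0.86 below the median of their array. The change with curdlan was -0.10 ± 0.0632 with a 95% interval of -0.26 to 0.07 (limma adjusted p = 0.582). In this comparison the intervals were 0.52 to 0.99 for Gadd45b and 0.10 to 0.35 for Gadd45a, which was not called. Intervals set side by side are not a test of a difference between members. R406 plus curdlan differed from curdlan by -0.06 ± 0.0632, with an interval of -0.22 to 0.10 (limma adjusted p = 0.667). Against control the difference was -0.15 ± 0.0632, with an interval of -0.31 to 0.01 (limma adjusted p = 0.264). No neighbours in the order of its levels, R406 plus curdlan, curdlan and control, differed beyond the test. No detection call was used here, so a change hidden by a low signal is not shown to be absent.

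**Figure D1:**
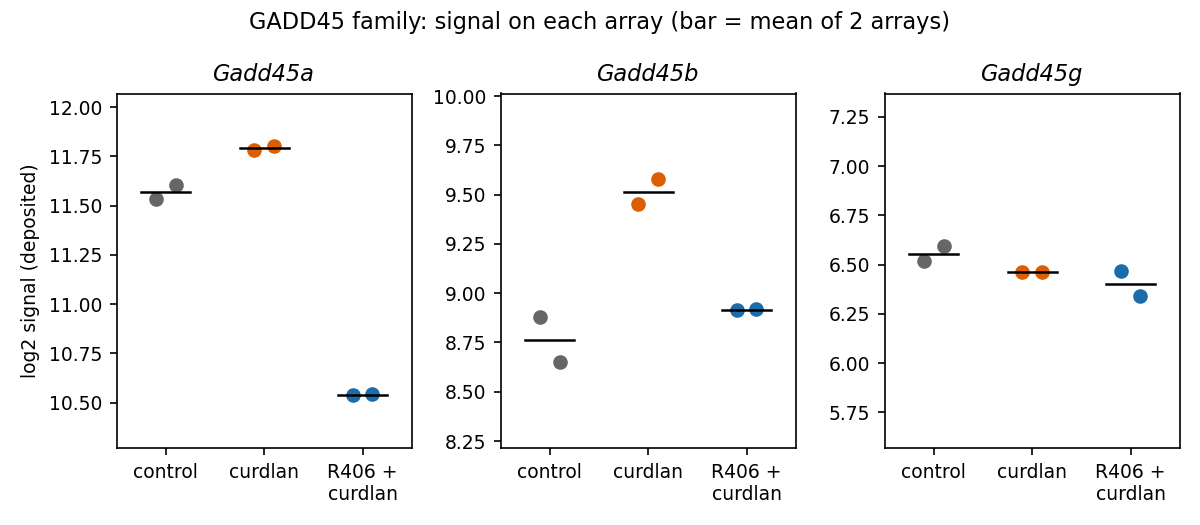
Deposited log2 signal (vertical axis, each panel spanning the same range of log2 units) of Gadd45a, Gadd45b and Gadd45g on the control, curdlan and R406 plus curdlan arrays, with 1 point per array and a bar at the mean of 2 arrays. Gadd45a was lowest under R406 plus curdlan at 10.54, Gadd45b was highest with curdlan at 9.45 and 9.58, and Gadd45g stayed between 6.34 and 6.60.

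The members' unequal responses can be written within each array, as the log2 signal of one member minus that of another. Changes of these differences follow by subtraction from the members' changes given above, so they are not a further check. Gadd45a minus Gadd45b was 2.65 and 2.96 on the control arrays, 2.22 and 2.33 on the curdlan arrays, and 1.62 on both R406 plus curdlan arrays. This difference therefore narrowed by 0.53 with curdlan, where Gadd45b rose more, and by a further 0.65 under R406, where Gadd45a fell more. Gadd45b minus Gadd45g widened by 0.85 with curdlan, from 2.05 and 2.36 to 2.99 and 3.12. Gadd45a minus Gadd45g was 5.01 to 5.02 on control arrays, 5.32 to 5.34 on curdlan arrays and 4.07 to 4.20 on R406 plus curdlan arrays. The exact permutation test, 2-sided, gave p = 0.333 in each of 9 comparisons (3 pairs of members and 3 pairs of groups), the smallest that 2 arrays against 2 allow. The size of such a difference between probe sets depends on their probes, so it does not show which gene is more abundant, and with this test the unequal changes are a description.

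**Figure D2:**
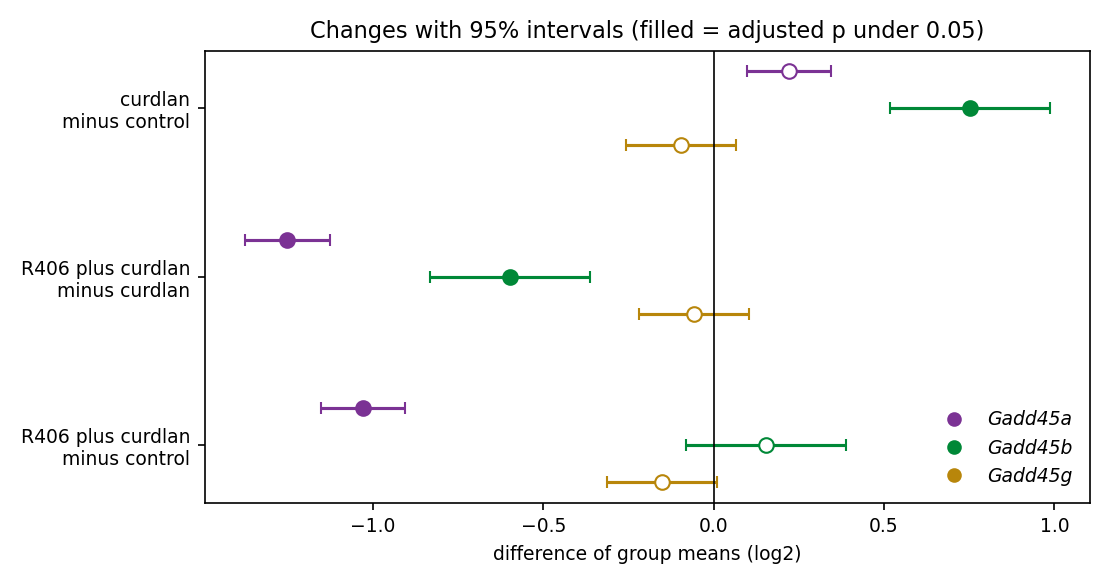
Change of each GADD45 member (horizontal axis, difference of group means in log2 units) in 3 comparisons, with 95% intervals from limma and filled points where the adjusted p was under 0.05. Gadd45b was called higher with curdlan at 0.75, Gadd45a and Gadd45b were called lower under R406 plus curdlan than with curdlan at -1.25 and -0.60, and Gadd45a was called lower than control at -1.03.

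The genes whose pattern lay nearest to each responding member were found by the root mean square difference of log2 values over the 6 arrays, after each probe set was centred on its own mean. They were chosen for this likeness, so their values are a description. Nearest to Gadd45a were Htr2a, a serotonin receptor gene, at 0.0426, Bhlhe40, which encodes a transcriptional repressor tied to the circadian clock, at 0.0477, and Kdm6b, a histone H3 lysine demethylase gene, at 0.0663. Cd200r1, an inhibitory receptor gene, and Relt, a TNF receptor family gene, followed at 0.0744 and 0.0981. The median difference over all probe sets with 1 symbol was 0.547. Htr2a, for example, was 0.21 higher with curdlan than in control (limma adjusted p = 0.185) and 1.17 lower under R406 plus curdlan than with curdlan, at -1.17 (adjusted p = 0.00151). Bhlhe40 had changes of 0.23 and -1.16.

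Nearest to Gadd45b were Yes1, a Src family kinase gene, at 0.0386, the relaxin gene Rln1 at 0.0539 and Degs1, a gene of ceramide synthesis, at 0.0673. Inpp5a, which encodes an inositol phosphate phosphatase, and Slc30a1, a zinc exporter gene, followed at 0.068 and 0.0716, against a median of 0.35 over all probe sets with 1 symbol. Yes1 rose by 0.68 with curdlan (limma adjusted p = 0.0298) and was lower under R406 plus curdlan than with curdlan, at -0.56 (adjusted p = 0.0185). The 2 responding members lay 0.493 apart from each other. Counted from the nearest probe set with 1 symbol, Gadd45b was number 2650 from Gadd45a, and Gadd45a was number 14904 from Gadd45b.

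**Figure D3:**
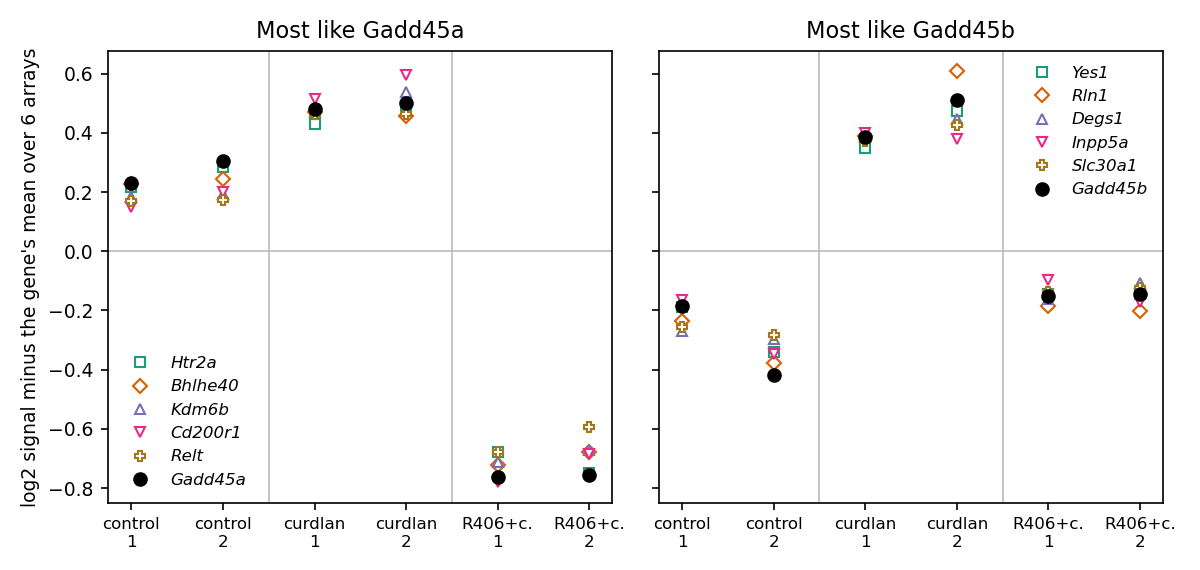
Log2 signal minus each gene's own mean over 6 arrays (vertical axis) on every array (horizontal axis, R406+c. for R406 plus curdlan), for Gadd45a and Gadd45b in black and the 5 genes nearest to each in open symbols. Near Gadd45a all genes were lowest under R406 plus curdlan, and near Gadd45b all were highest with curdlan, as their selection fixes.

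Other genes of the pathway came from 7 lists with 107 distinct entries, 88 of which had a probe set with 1 symbol. They are given by counts of called genes, beside the share of all probe sets called in that comparison (1.59% with curdlan, 7.25% under R406 plus curdlan against curdlan, and 2.23% under R406 plus curdlan against control). These shares include dim probe sets. Fits of only probe sets above the median signal called 1572, 3717 and 2278 in these comparisons, against 465, 2118 and 652 in the main fit. The median change of all probe sets was -0.01, -0.0019 and -0.01 in these comparisons. Many of these calls rest on all 6 arrays: of 12 listed genes called with curdlan, Ddit4 and Plk3 alone were called without each array in turn. Of 24 called under R406 plus curdlan against curdlan, 5 were (Atf4, Ddit4, Egr1, Myc and Plk3), and of 12 called against control, 3 were (Egr1, Myc and Plk3).

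Among 7 genes whose products bind GADD45 proteins, 0 were called with curdlan, with a list median of 0.05. Cdkn1a, which encodes p21, had means of 11.09, 11.53 and 10.79 in control, curdlan and R406 plus curdlan arrays. Its change with curdlan was 0.43 ± 0.0697 (limma adjusted p = 0.0641) and it fell by 0.74 ± 0.0697 under R406 plus curdlan against curdlan (adjusted p = 0.00754). Aurka, a mitotic kinase gene, rose in that comparison by 0.51 ± 0.0569 (adjusted p = 0.0111) and against control by 0.56 ± 0.0569 (adjusted p = 0.0202). The replication clamp gene Pcna had means of 12.54, 12.53 and 12.55. Cdk1 had means of 11.36, 11.49 and 11.58, and Ccnb1, the cyclin B1 gene, of 11.89, 11.98 and 12.20, with a difference between R406 plus curdlan and control of 0.31 that did not pass (adjusted p = 0.0648). Gadd45gip1, which encodes a GADD45-interacting protein of mitochondrial ribosomes, had means of 10.02, 10.08 and 10.02. The nucleolar protein gene Npm1, read by the brightest of its 4 probe sets, had means of 12.90, 12.92 and 12.94. None of these last 5 genes was called.

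Of 14 genes of the p38 and JNK cascade, 2 rose and 1 fell with curdlan. Map2k3, a kinase gene directly upstream of p38, rose by 0.54 ± 0.0602 (limma adjusted p = 0.0307), and Mapkapk2, which encodes a kinase activated by p38, rose by 0.40 ± 0.0443 (adjusted p = 0.0305). Map2k6, another kinase gene upstream of p38, fell by 0.41 ± 0.0558 (adjusted p = 0.044). Under R406 plus curdlan against curdlan, 0 rose and 2 fell, Map2k3 at -0.61 and Mapkapk2 at -0.35 (adjusted p = 0.00874 and 0.0153). Against control 0 of 14 were called, and list medians were -0.01, -0.0080 and -0.06 in the 3 comparisons. Map2k3 and Mapkapk2 thus had their highest means with curdlan, at 11.17 and 12.35, against 10.63 and 11.95 in control and 10.56 and 11.99 under R406 plus curdlan.

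Of 17 measured transcription factors reported to act on GADD45 genes, 3 rose and 1 fell with curdlan: Foxo1 rose by 0.64 ± 0.0543 (limma adjusted p = 0.0163), Jund by 0.34 ± 0.0464 (adjusted p = 0.0458) and Egr1 from a mean of 11.24 to 12.14, while Atf4 fell from 11.88 to 11.04. Under R406 plus curdlan against curdlan, 4 rose and 4 fell. Egr1 and Myc had means of 7.46 and 8.21 there, and Foxo1 and Jund were lower at -0.78 and -0.35 (adjusted p = 0.00374 and 0.0187). The genes that rose were Atf4 to 12.07, Foxo3, a forkhead factor active when Akt is not, by 0.62 ± 0.0922 (adjusted p = 0.0245), Brca1 by 0.52 ± 0.0594 (adjusted p = 0.0118) and Foxo4 by 0.27 ± 0.0515 (adjusted p = 0.0445). Against control, Pou2f1, which encodes Oct-1, rose by 0.43 ± 0.0532 (adjusted p = 0.0311), while Egr1 fell by 3.78 and Myc fell by 3.38 (adjusted p = 0.000513 and 0.000583), from control means of 11.24 and 11.58. These 2 genes, like Gadd45a, thus lay below control under R406 plus curdlan. List medians were 0.0078, -0.04 and 0.04.

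Of 22 measured p53 targets, 2 rose and 0 fell with curdlan. Plk3, a stress-responsive polo-like kinase gene, rose from 10.69 to 11.71, and Tp53inp1, a stress-induced p53 cofactor gene, rose by 0.45 ± 0.0488 (limma adjusted p = 0.0294). Under R406 plus curdlan against curdlan, 3 rose and 4 fell. Besides Cdkn1a, those that fell were Plk3 to 8.40, Tigar, a regulator of sugar phosphate use, at -0.66 (adjusted p = 0.00568) and the nuclease gene Aen at -0.59 (adjusted p = 0.00435). Those that rose were Rrm2b, a ribonucleotide reductase subunit gene, at 0.38, Tp53inp1 at 0.29 and the BH3-only gene Bbc3 at 0.26 (adjusted p = 0.0498, 0.0328 and 0.0498). Against control, Tp53inp1 rose by 0.74 ± 0.0488 (adjusted p = 0.00898), while Plk3 fell by 2.30, Aen fell by 0.42 and Mdm2, which encodes the p53 ubiquitin ligase, fell by 0.34 (adjusted p = 0.000513, 0.0207 and 0.0492). List medians were -0.02, 0.0083 and -0.04.

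Among 7 measured genes of other growth arrest and DNA damage inducible families, 2 fell and 0 rose with curdlan, and the same 2 rose under R406 plus curdlan against curdlan. They were Ddit3, which encodes the stress factor CHOP and is also known as GADD153, with means of 9.23, 8.11 and 8.96, and Ddit4, an mTORC1 inhibitor gene, with means of 11.18, 7.71 and 10.23. Their directions were opposite to that of Gadd45b in both of these comparisons and to that of Gadd45a under R406 plus curdlan against curdlan. Against control 1 fell, Ddit4 by 0.95 ± 0.0911 (limma adjusted p = 0.0184), the same direction as Gadd45a there. List medians were -0.15, 0.14 and -0.06.

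Of 13 measured checkpoint genes, Cdc25a, a phosphatase gene that drives entry into S phase, rose by 0.32 ± 0.0429 with curdlan (limma adjusted p = 0.0435) and fell by 0.54 ± 0.0429 under R406 plus curdlan against curdlan (adjusted p = 0.00529). In the latter comparison Cdc25b, its mitotic relative, rose by 0.52 ± 0.0445 (adjusted p = 0.00607) and the checkpoint kinase gene Chek2 by 0.30 ± 0.0563 (adjusted p = 0.0437). Against control, Cdc25b rose by 0.54 and Wee1, a kinase gene that restrains Cdk1, by 0.39 (adjusted p = 0.0135 and 0.0311). Of 9 measured genes of demethylation and excision repair, 0 were called with curdlan, and Ing1, which encodes a chromatin reader that binds GADD45a, was called higher under R406 plus curdlan, by 0.29 ± 0.0475 against curdlan and 0.38 ± 0.0475 against control (adjusted p = 0.0311 in both).

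**Figure D4:**
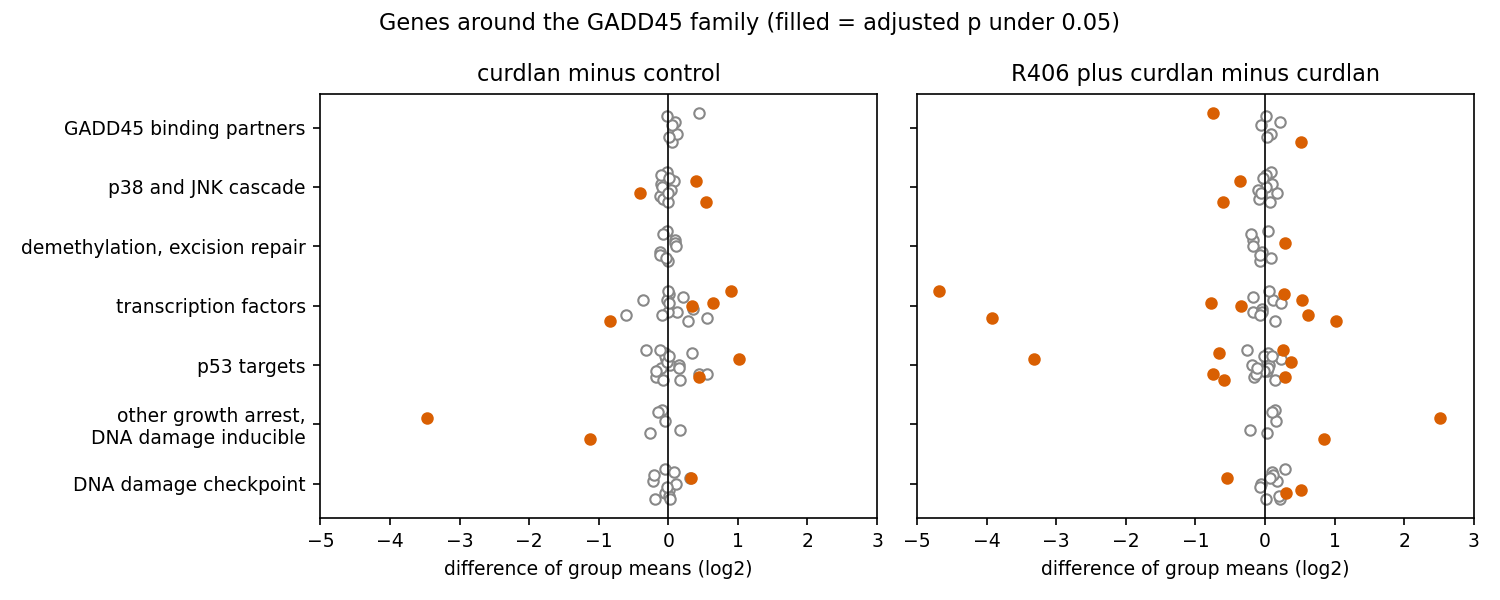
Change (horizontal axis, difference of group means in log2 units) of each measured gene of the 7 lists around the GADD45 family, with curdlan against control on the left and R406 plus curdlan against curdlan on the right. Filled points were called, and vertical offsets within a list only separate points. Most genes lay near 0, and the genes farthest out on the left were Ddit4, Ddit3 and Plk3.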

How the data were processed

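The authors deposited log2 signals, 1 for each probe set on each array. Per the submitters' processing notes they used Affymetrix Expression Console. Which version, summarisation, normalization and genome build they used was not given in the sources used here, and the log base was inferred from the highest signal of 14.41. Biotinylated cDNA came from a whole-transcript labelling kit, per the labels' protocols. Nearly equal array medians mean that a change shared by most transcripts would not be seen. A single limma model of 3 groups was fitted to all 6 arrays (R 4.3.3, limma 3.58.1), with 3 residual and 2.16 prior degrees of freedom, without filter or further normalization, and p-values were adjusted over 29214 probe sets. The fit was first tested on simulated data. The number of arrays limits precision.

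The family, the lists and the rule for named genes were chosen with earlier results of these data known. Named were all members, all binding partners, Clec7a and Syk, up to 4 called genes per list, comparison and direction, and the 5 genes nearest in pattern to each called member. Each listed gene was read by its brightest probe set. Symbols came from the platform annotation, in which 323 probe sets had several and 13581 had none, and from RefSeq. The motifs were chosen after the promoters were seen.

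Alternatives were quantile normalization, centring arrays on their median, only probe sets above the median signal, a variance prior with trend, only the 4 arrays compared, the replicate number as a block, and leaving out each array.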

Additional observations from a re-analysis of the deposited data

How the results depend on the processing

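The direction of every member's change held under quantile normalization, median centring, the signal filter (which leaves out Gadd45g), the trended prior, the replicate block and the fit of 4 arrays. Calls differed in these cases. Gadd45a with curdlan, at 0.22, passed with the signal filter and with the trended prior. Gadd45b with curdlan, at 0.75, did not pass with the replicate block (limma adjusted p = 0.109) or in the fit of 4 arrays, and its change of -0.60 under R406 did not pass with the block (adjusted p = 0.0702). The block left both changes the same, with an SE of 0.101 against 0.0921. Both the block fit and the fit of 4 arrays have 2 residual degrees of freedom, against 3 in the main fit. Calls lost there are thus no test of pairing. Whether arrays with the same number were paired is not settled. Their deviations correlated at -0.115 for control and curdlan, -0.00454 for control and R406 plus curdlan, and 0.113 for curdlan and R406 plus curdlan. With 2 arrays per group these values cannot decide it. Without each array in turn, Gadd45b with curdlan ranged from 0.64 to 0.87 and under R406 against curdlan from -0.66 to -0.54, and Gadd45a against control ranged from -1.07 to -0.99. Among values not called, Gadd45b under R406 plus curdlan against control ranged from 0.04 to 0.27, and Gadd45g ranged from -0.14 to -0.06 with curdlan and from -0.22 to -0.09 under R406 plus curdlan against control. Gadd45g under R406 against curdlan ranged from -0.12 to 0.0065, the last without R406 plus curdlan replicate 2.

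The number of probe sets called moved most. With curdlan it was 465, and 1572 with the filter, 1557 with the trended prior, 102 with the replicate block, 68 in the fit of 4 arrays, and 32 to 68 without 1 array. Under R406 plus curdlan against curdlan it was 2118, and 3717, 3767, 1129, 1232, and 210 to 1232 in the same order. Against control it was 652, and 2278, 2341, 62, 182, and 15 to 182. The fits with the replicate block, of 4 arrays and without 1 array each have 2 residual degrees of freedom. Of 504 list counts recomputed, 326 stayed within 1.5 times the reported count and 178 did not. Counting all sizes of shift, 157 of the 504 were lower and 45 higher than reported. The cause of these shifts was not tested. The within-array differences kept their sign under quantile normalization and without each array. Gadd45g, below every array median, is the member for which low signal most limits what can be seen.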
